A study of Mus musculus with 6 samples.

Results

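Transcript levels of 8 enzymes of cholesterol biosynthesis were compared in the hippocampus of wild-type (WT) mice and Slc1a2 knock-in mice (labelled TG). The 8 genes, Hmgcs1, Idi1, Fdps, Fdft1, Sqle, Lss, Cyp51 and Dhcr7, were taken by symbol from the deposited table, in which each symbol matched 1 of 54532 genes, and the rule that chose them used no measured value. RNA-seq was performed on hippocampal tissue of 3 WT and 3 TG mice, numbered 1 to 3 in each group as in their labels (WT1, TG1 and so on), and 3 values given for a group are in that order. In TG mice CRISPR/Cas9 had introduced G82R and L85P into exon 3 of Slc1a2, which encodes the glutamate transporter GLT-1, on the C57BL/6N background. The methods of the study name WT littermates as controls. The labels name no treatment other than genotype, and neither age nor the number of altered alleles is given in the sources used here. The change is in the germline, so every cell type of the tissue carries it.

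Cholesterol is built from acetyl-CoA through the mevalonate pathway. Mevalonate is turned into isoprene units, these are joined into farnesyl diphosphate and squalene, and squalene is closed into lanosterol, which is trimmed to cholesterol. In the adult brain nearly all cholesterol is made locally, because lipoproteins of the blood do not cross the blood-brain barrier. Oligodendrocytes need it for myelin, while astrocytes make it and pass it to neurons on particles that contain Apoe. The enzymes are controlled together by the transcription factor SREBP-2, the product of Srebf2, which is released from the endoplasmic reticulum when sterols are low.

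The values are FPKM (fragments per kilobase of gene length, scaled to library size), and the reads behind them could be recovered, with 16081281 to 18751057 reads on genes per library. Of the 8 enzymes, 7 had 249 to 3674 reads in each library, while Fdps had 8 to 28. Slc1a2 itself had an FPKM of 202, 199.5 and 177 among WT mice, against 222, 207 and 217 among TG mice (log2 fold change 0.16, 95% interval -0.04 to 0.36, adjusted p = 0.789 in limma). These values are of RNA, while the paper reports from Western blots that GLT-1 protein was almost lost in the TG hippocampus. FPKM hold no bases from which the genotype could be checked. Markers of hippocampal neurons were present in all libraries, with an FPKM of 9.81 to 14.4 for Prox1, a gene of dentate granule cells. Xist, which is expressed from the inactive X chromosome of females, was at most 0.02 FPKM in each library and the Y-linked Ddx3y was at 10.6 to 12.3 FPKM. The 10 markers of the choroid plexus, the secretory epithelium of the brain ventricles, stood apart in TG1 and TG2, with a summed FPKM of 1213 and 3836, against 57.9 to 82.5 in the WT libraries and 66.1 in TG3. Bulk FPKM cannot tell fewer cells of a type from less RNA per cell.

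The promoters of the enzymes are shown first, because co-regulation by SREBP-2 and its partner factor NF-Y, which binds CCAAT boxes, is what is known to hold this pathway together. Sequences from 250 bases before to 50 bases after the RefSeq start (GRCm38.p6) were found for Hmgcs1, Idi1, Lss, Cyp51 and Dhcr7, and not for Fdps, Fdft1 and Sqle. The letters TCACNCCAC, a form of the sterol regulatory element, were searched on both strands. They occurred in 1 of the 7 promoters of these 5 genes, that of Hmgcs1, and in 1.24% of all 32851 promoters. Of 12 other enzymes of the pathway whose promoters were found, 0 had these letters. The match lay 137 bases before the start of Hmgcs1 in chr13:119690204-119690233 on the plus strand, and is in capitals here.
Hmgcs1: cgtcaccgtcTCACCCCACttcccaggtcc
The letters CCAAT on either strand occurred in 5 of the 7 promoters, 1 of each gene, and in 37.4% of all promoters. They were found for 11 of the 12 other enzymes, counted by gene with a match in any of its promoters. Such a count by gene is not comparable with the share of all promoters. The box nearest to the start on its upstream side is shown in capitals for each gene, 5′ to 3′ on the strand of the gene, where ATTGG is the same box on the opposite strand.
Hmgcs1: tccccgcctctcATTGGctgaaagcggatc
Idi1: gtccaaggtgccATTGGctggcgaccgaca
Lss: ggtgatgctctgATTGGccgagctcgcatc
Cyp51: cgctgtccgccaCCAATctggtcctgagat
Dhcr7: aatccacttccgATTGGtcgtctgtgacct
These stretches lie at chr13:119690294-119690323 (plus strand), chr13:8885580-8885609 (plus strand), chr10:76531531-76531560 (plus strand), chr5:4104709-4104738 (minus strand) and chr7:143830153-143830182 (plus strand), and the boxes begin 45, 14, 62, 29 and 49 bases before the start. Hmgcs1 has further boxes 237 and 176 bases before and 10 bases after its start, Idi1 has another 45 bases before, and Dhcr7 has boxes only at the most downstream of its 3 starts. The letters GGGCGG on either strand, a GC box, were found in 6 of the 7 promoters and in 35.7% of all promoters. They were found for 10 of the 12 other enzymes, again counted by gene. A match is a description of these windows and not a measured binding site.

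The 8 enzymes differed widely in level, and the order of their FPKM was nearly the same in every library. Averaged over the 6 libraries, the FPKM was 37.7 for Hmgcs1, 19.2 for Fdft1, 15.4 for Cyp51, 11.2 for Sqle, 5.58 for Idi1, 5.26 for Dhcr7, 3.19 for Lss and 0.238 for Fdps. The ranges over the libraries of neighbours in this order did not touch, except for Idi1 (4.49 to 6.16) and Dhcr7 (4.72 to 5.82). Hmgcs1 alone held 37.5% to 40.8% of the summed FPKM of the 8 genes. The level of Fdps, its place in this order and its part of the sum are uncertain. Of its coding bases, 85.9% are also exonic on the same strand in Gm43738, which had 0 reads in each library. The part of this overlap in the low level of Fdps was not tested. The deposited gene length counts every annotated exon of a gene and was between 1.12 and 3.05 times that of the longest principal coding transcript. When the same reads were divided by the length of that transcript, an alternative chosen after seeing the data, Hmgcs1 stayed the most abundant at 50.01, Sqle moved past Cyp51 and Fdft1 to 22.5 beside Fdft1 at 21.9, and Idi1 moved behind Dhcr7 and Lss.

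**Figure D1:**
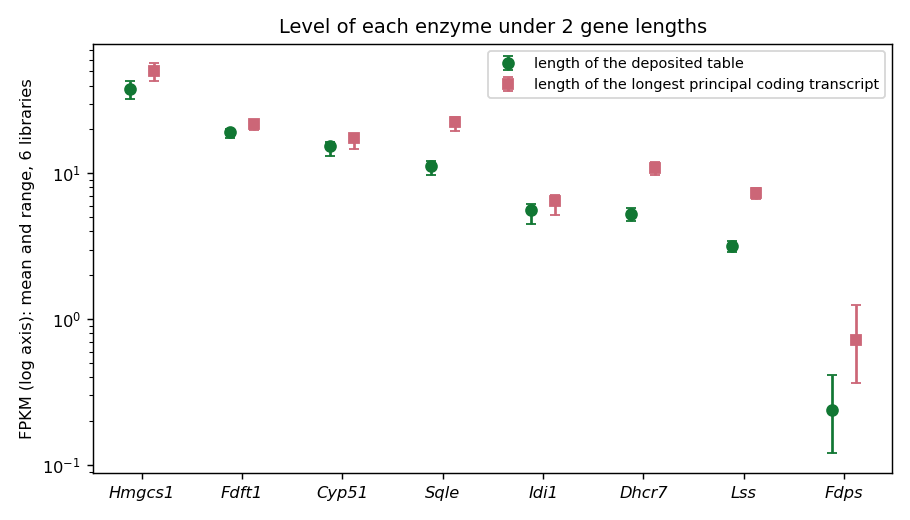
Mean FPKM of each enzyme on a log axis, with bars from the lowest to the highest of the 6 libraries. Circles use the gene length of the deposited table and squares the length of the longest principal coding transcript. Sqle, Dhcr7 and Lss move up by about their length ratio (2.01, 2.07 and 2.31), and Fdps stays the lowest at either length. The level of Fdps is uncertain, because 85.9% of its coding bases are also exonic on the same strand in Gm43738.

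No enzyme passed the test between TG and WT mice. With limma on log2(FPKM + 0.1), 0 of the 8 had an adjusted p under 0.05 (Benjamini-Hochberg over all 20952 genes tested), where 0.00955% of all genes did. At an unadjusted p under 0.05 the count was 0 of 8 as well, with 0 higher and 0 lower, where 5.91% of all genes passed (3.13% higher and 2.78% lower in TG mice), and limma-voom on the recovered reads gave 0 of 8 at both thresholds. The median log2 fold change over the 8 was 0.02, beside -0.002 over all genes tested, and 5 of the 8 were above and 3 below 0. A fold change on this scale understates the change of a gene with a low FPKM. The groups did not overlap in 1 of the 8, Fdps, which was lower in TG mice, where 12.1% of all genes had groups that did not overlap (6.35% higher and 5.71% lower). The values of each gene follow in the order of the pathway.

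Hmgcs1, which joins acetyl-CoA and acetoacetyl-CoA to HMG-CoA at the entry of the pathway, is on chromosome 13 from 119690379 to 119708260 (GRCm38, ENSMUSG00000093930). It had an FPKM of 39.3, 32.5 and 42.7 among WT mice, against 37.4, 37.4 and 36.9 among TG mice. The TG libraries lay inside the WT range, and the spread was wider in WT mice (38.2 ± 5.18, SD, n = 3) than in TG mice (37.2 ± 0.312, SD, n = 3). The log2 fold change was -0.03 (standard error 0.103), with a 95% interval from -0.27 to 0.21. Of its coding bases, 35.1% are also exonic on the opposite strand in the antisense gene Gm48342. A fall to below 0.831 of the WT level or a rise to above 1.16 times that level lay outside the interval.

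Idi1 and Fdps act on the isoprene units. Idi1, which interconverts isopentenyl and dimethylallyl diphosphate (chromosome 13 from 8885501 to 8892451, ENSMUSG00000058258), had an FPKM of 5.99, 5.02 and 6.16 among WT mice, against 4.49, 6.03 and 5.80 among TG mice. TG1 was the lowest of all 6 libraries, and the other TG libraries lay inside the WT range. For Idi1 the log2 fold change was -0.08 (95% interval -0.40 to 0.25). Of its 50-base stretches, 17.7% are found again in the processed pseudogene Gm13502, which had 4 to 9 reads per library. Idi2, the second isomerase gene, had at most 1 read in a library.

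Fdps, which condenses isoprene units to farnesyl diphosphate, the branch point towards squalene and protein prenylation, stood apart from the other enzymes in both level and annotation. It is on the minus strand of chromosome 3 from 89093588 to 89101959 (ENSMUSG00000059743). Its FPKM was 0.244, 0.412 and 0.254 among WT mice, against 0.120, 0.239 and 0.158 among TG mice, on 19, 28 and 20 reads and 8, 18 and 12 reads. Every TG library was below every WT library, with WT1 and TG2 nearly level. Its log2 fold change was -0.57 with a wide 95% interval from -1.38 to 0.25, and the adjusted p was 0.789 (limma). Of its 1308 coding bases, 85.9% are also exonic on the same strand in Gm43738, an annotated gene that runs from Fdps into the neighbouring Rusc1 and that had 0 reads in each of the 6 libraries. For the other 7 enzymes, no coding base was exonic in another gene on the same strand. Stretches of 50 bases of Fdps are found again in processed pseudogenes, 12.1% of them in Gm3571 on chromosome 10, which had 53 to 81 reads per library, and 5.53% in Gm5873 on chromosome 6, which had 11 to 28. One such stretch of 60 coding bases is shown, because a read inside it matches both genes equally well. In GRCm38 it lies at chr3:89100750-89100809 on the minus strand and, without a difference, at chr10:93778660-93778719 on the plus strand.
Fdps and Gm3571: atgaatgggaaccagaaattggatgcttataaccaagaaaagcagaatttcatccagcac
The values of Fdps are uncertain because how the counting treated reads that match more than 1 gene is not given in the sources used here, and the part of the overlap and of the shared stretches in its level and its difference was not tested.

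Fdft1 and Sqle make squalene and its epoxide. Fdft1, the squalene synthase (chromosome 14 from 63145150 to 63179578, minus strand, ENSMUSG00000021273), had an FPKM of 19.96, 17.4 and 20.1 among WT mice, against 19.6, 19.3 and 18.6 among TG mice. All TG libraries lay inside the WT range, and the group means were 19.18 in both. Its log2 fold change of 0.003 had the narrowest 95% interval of the 8, from -0.18 to 0.19. Its 3′ end overlaps Ctsb on the opposite strand (18.3% of its exonic bases), a gene at an FPKM of 80.0 to 87.8, and whether the counting used strand is not given in the sources used here. Sqle, the squalene epoxidase (chromosome 15 from 59315077 to 59331192, ENSMUSG00000022351), had an FPKM of 11.7, 9.69 and 11.3 among WT mice, against 12.1, 11.1 and 11.4 among TG mice. TG1 was the highest and WT2 the lowest library, and the groups overlapped. The log2 fold change of Sqle was 0.08 (95% interval -0.13 to 0.29), and 0.036% of its 50-base stretches were shared with another gene.

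Lss, the cyclase that closes squalene epoxide to lanosterol (chromosome 10 from 76531588 to 76557138, ENSMUSG00000033105), had an FPKM of 3.33, 2.90 and 2.93 among WT mice, against 3.44, 3.44 and 3.09 among TG mice. WT1 lay above TG3, so the groups overlapped. For Lss the log2 fold change was 0.12 (95% interval -0.13 to 0.37), and it was 0.02 both with the choroid plexus score as a covariate and without TG1 and TG2.

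Cyp51 and Dhcr7 act on the sterol rings. Cyp51, which removes the 14-alpha methyl group of lanosterol (chromosome 5 from 4081145 to 4104746, minus strand, ENSMUSG00000001467), had an FPKM of 14.9, 13.1 and 16.4 among WT mice, against 15.4, 16.5 and 16.4 among TG mice. WT3 lay among the TG libraries. For Cyp51 the log2 fold change was 0.13 (95% interval -0.09 to 0.35), the highest of the 8. Without WT3 it was 0.21 with an unadjusted p of 0.039 (adjusted p = 0.984 in limma), and without WT2 it was 0.04 with an unadjusted p of 0.587, so both its size and whether it passes the unadjusted threshold rest on single WT libraries. Dhcr7, the reductase of the last step towards cholesterol (chromosome 7 from 143823145 to 143848410, ENSMUSG00000058454), had an FPKM of 5.82, 5.09 and 4.72 among WT mice, against 5.12, 5.72 and 5.12 among TG mice. The TG libraries lay inside the WT range. For Dhcr7 the log2 fold change was 0.03 (95% interval -0.21 to 0.28).

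**Figure D2:**
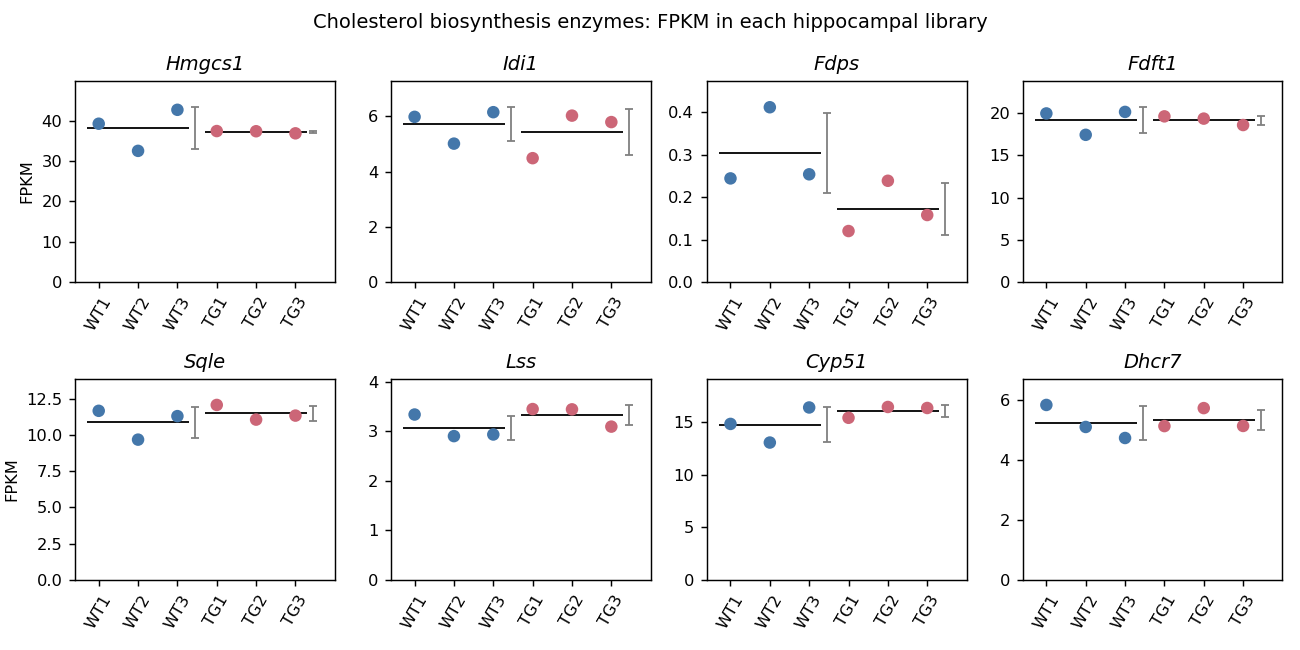
FPKM of each enzyme in the 3 WT (blue) and 3 TG (red) libraries, with each y axis starting at 0. Horizontal lines are group means and grey bars are ± 1 SD (n = 3). The groups overlap in 7 panels, and only Fdps, on 8 to 28 reads, has all TG points below all WT points.

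Among the libraries, WT2 stood lowest for most of the enzymes. It had the lowest FPKM of 5 of the 8 enzymes, and 7 of the 8 were below their WT mean there. Over all 20952 genes tested, 10153 were below their WT mean in WT2, with a median deviation of 0.001. The share of all genes that were lowest in WT2 was not counted. Relative to each gene's WT mean, the 8 enzymes had a median on the log2 scale of 0.07 in WT1, -0.15 in WT2, 0.07 in WT3, 0.01 in TG1 and 0.05 in TG2, and TG3 was level with the WT mean. The 3 TG libraries thus lay between WT2 and the other WT libraries. The 14 other enzymes of the pathway had their lowest median, -0.08, in WT2 too. So did the 7 genes of sterol turnover and transport (-0.07) and the 5 endothelial markers (-0.10), both described below. Each other list used here was lowest in another library. Over the 6 libraries the coefficient of variation was 5.30% for Fdft1, 7.32% to 8.81% for Hmgcs1, Sqle, Lss, Cyp51 and Dhcr7, 12.04% for Idi1 and 42.4% for Fdps.

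Markers of oligodendrocytes, which use cholesterol for myelin, were below 0 in all 10 log2 fold changes, and whether they differed from the enzymes in this was not tested. The 10 markers had a median log2 fold change of -0.28, and 2 of them, Opalin and Mal, had an unadjusted p under 0.05 and 0 passed after adjustment (limma, smallest adjusted p = 0.786). Over all genes tested, 2.78% were lower at this unadjusted threshold. The median deviation of the 10 markers was 0.12, 0.06 and -0.18 among WT mice, against -0.65, -0.15 and -0.07 among TG mice. TG1, with the lowest oligodendrocyte markers, had the highest Sqle and Lss and the lowest Idi1 and Fdps of the 6 libraries. The 7 astrocyte markers had a median log2 fold change of 0.03, the 7 neuronal markers 0.02, the 6 microglial markers 0.12, the 5 endothelial markers 0.02, the 10 choroid plexus markers 2.44, the 6 markers of hippocampal neurons -0.08 and 4 sex-linked genes 0.04. In limma 0 genes of these lists passed after adjustment, and at an unadjusted p under 0.05 those higher in TG mice were Csf1r of microglia, Flt1 of endothelium and 4 choroid plexus markers. Over all genes tested, 3.13% were higher at that threshold. The choroid plexus markers had a median deviation of 3.00 in TG1, 4.40 in TG2 and -0.07 in TG3, and their part in these results was not tested beyond the fits given next. Without TG1 and TG2, a comparison of 3 WT libraries with 1 that assumes TG3 to vary like the others, 0 of the 8 enzymes passed the unadjusted threshold and their median log2 fold change was 0.00. With the choroid plexus score as a covariate it was -0.03, with the oligodendrocyte score 0.05, and 0 of 8 passed in either fit.

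**Figure D3:**
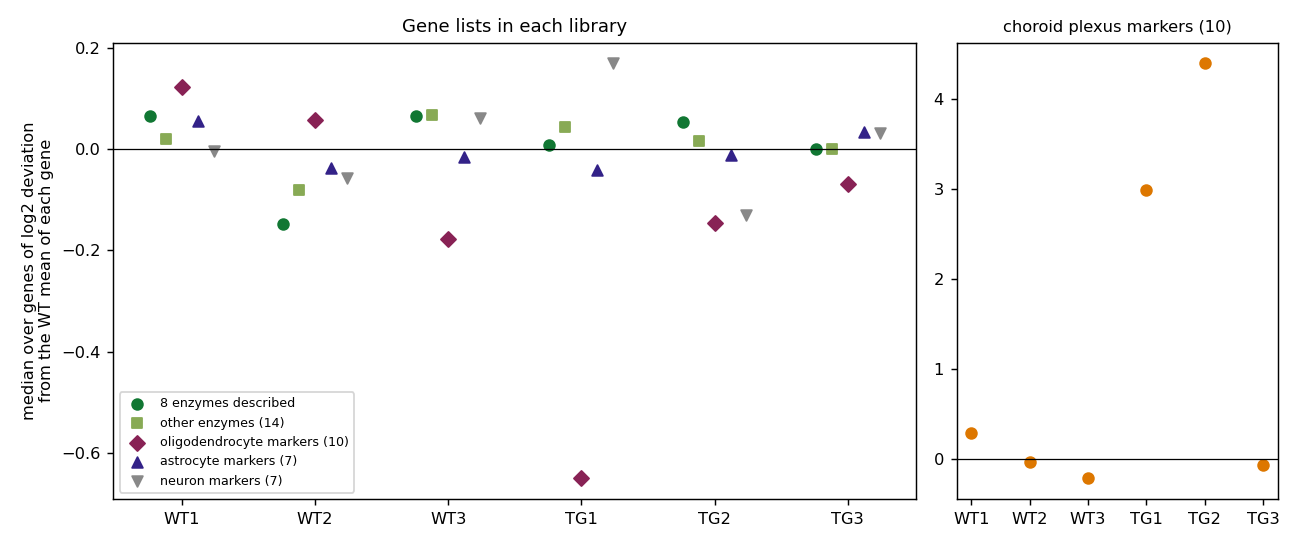
Median over the genes of each list of the log2(FPKM + 0.1) deviation from the WT mean of each gene, in each library; the right panel has its own scale. The 8 enzymes stay between -0.15 and 0.07, the oligodendrocyte markers reach -0.65 in TG1, and the choroid plexus markers reach 3.00 and 4.40 in TG1 and TG2.

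Other enzymes of the same pathway were described from a list of 14 genes. At an unadjusted p under 0.05, 1 of them was higher in TG mice and 0 were lower, and 0 passed after adjustment (limma). Over all genes tested, 3.13% were higher and 2.78% lower at the unadjusted threshold. The median log2 fold change of the 14 genes was 0.04, 10 were above and 4 below 0. The count of 1 became 0 when WT2, WT3, TG1 or TG2 was left out. Ebp, an isomerase of the sterol ring and given here after its values were seen, had an FPKM of 6.23, 5.12 and 6.82 among WT mice, against 5.25, 5.12 and 4.96 among TG mice. WT2 lay among the TG libraries, and the log2 fold change of Ebp was -0.23 (95% interval -0.50 to 0.04).

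**Figure D4:**
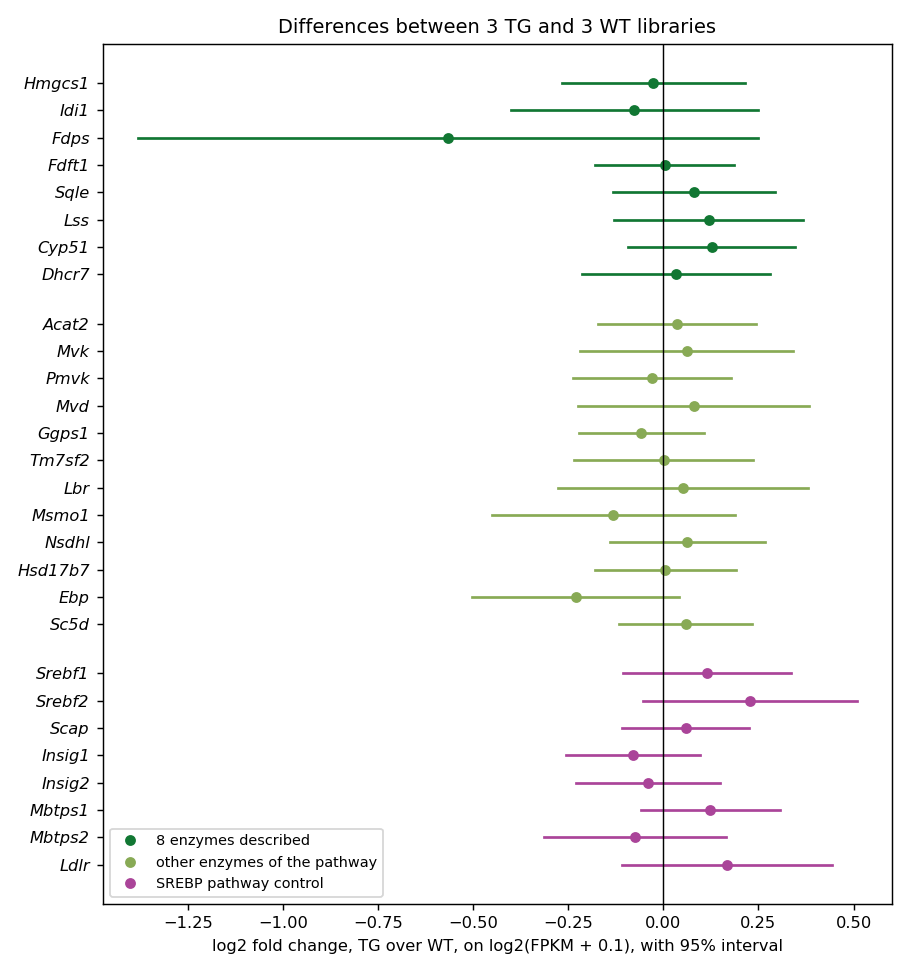
Log2 fold change of TG over WT mice on log2(FPKM + 0.1) with its 95% interval from limma (3 against 3 libraries), for the 8 enzymes and for genes of the lists of other pathway enzymes and SREBP control, not all of which are drawn (the 1 with an unadjusted p under 0.05 is left out). Every interval drawn includes 0, and that of Fdps, at few reads (-1.38 to 0.25), is the widest of those drawn.

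Genes that control the pathway, or use its product, were described from 3 further lists. Of 9 genes of SREBP control, 0 passed the unadjusted threshold in limma, where 5.91% of all genes did. After adjustment 0 passed, and the median log2 fold change was 0.06. Srebf2, both the most abundant and the one with the smallest p, had an FPKM of 38.1, 35.2 and 28.4 among WT mice, against 43.1, 36.6 and 38.8 among TG mice. WT1 lay above TG2, and the log2 fold change of Srebf2 was 0.23 (95% interval -0.06 to 0.51). Without WT3 it was 0.11, and without WT1 it was 0.32 with an unadjusted p of 0.0478. Among 8 genes of LXR control and sterol export, the median log2 fold change was 0.004. In this list only Lcat, which esterifies cholesterol on lipoproteins, was lower at an unadjusted p under 0.05, with an FPKM of 15.8, 16.4 and 17.8 among WT mice, against 13.5, 15.2 and 14.3 among TG mice (log2 fold change -0.21, adjusted p = 0.786 in limma). All TG libraries lay below all WT libraries, as in 5.71% of all genes. The unadjusted p of 0.0274 for Lcat became 0.0567, 0.0721 and 0.0646 without WT3, TG1 or TG3 (limma). Apoe, the most abundant, averaged 801 ± 75.0 FPKM (SD, n = 3) in WT and 820 ± 42.2 (SD, n = 3) in TG mice, which differ by less than either SD. Among 7 genes of sterol turnover and transport within the cell, the median was 0.20 (0.07 without WT3, 0.12 without TG2 and 0.11 with the choroid plexus score as a covariate), and Soat1, which esterifies cholesterol for storage, was the only one higher at an unadjusted p under 0.05. Its FPKM was 3.28, 2.88 and 3.05 among WT mice, against 3.51, 4.03 and 3.48 among TG mice, with the TG libraries above the WT libraries, as in 6.35% of all genes (log2 fold change 0.25, adjusted p = 0.786 in limma). Its unadjusted p of 0.049 was 0.0605 to 0.142 when any library but WT1 was left out. Cyp46a1, which makes the hydroxysterol that leaves the brain and was the most abundant of this list, averaged 43.99 ± 1.12 FPKM (SD, n = 3) in WT and 41.95 ± 1.55 (SD, n = 3) in TG mice, and its groups overlapped.

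The genes most like the enzymes over the 6 libraries were sought among 11910 other protein-coding genes whose mean FPKM was 1 or more. The measure was the root mean square distance between profiles of log2(FPKM + 0.1), each centred and divided by its SD. For the mean profile the enzymes were centred and averaged, and only the mean was divided by its SD. A gene with a wide spread, such as Fdps, therefore weighs more in it. The lowest library of the averaged deviations was TG1 (-0.08) with all 8 enzymes and WT2 (-0.16) without Fdps. Nearest to the mean profile of the 8 enzymes were Lix1, Prdx4, Prph, Stn1 and Fam58b, at distances of 0.190 to 0.227. The enzymes themselves lay 0.473 (Idi1) to 1.18 (Lss) from it. Without Fdps, an alternative chosen after seeing the data, the other 7 enzymes lay 0.464 (Fdft1) to 0.993 (Dhcr7) from their own mean profile and Fdps lay 1.57 from it, where the median distance of the 11910 genes was 1.27. Each of the 7 is part of the mean it is measured against, which brings it nearer by construction, so these distances are not comparable with those of Fdps and the other genes. The nearest genes were then Magt1, Tmem51, Nostrin, Acads and Lrrc6, none of which was among the nearest to the profile of all 8. Of the 14 other enzymes of the pathway, the nearest was Nsdhl at 0.605, rank 293 among the 11910 genes. All these profiles share the same 6 libraries.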

How the data were processed

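RNA-seq of hippocampal tissue was used from 3 WT and 3 TG mice, grouped by their labels. Reads per gene were counted by the authors (HTSeq), scaled to gene length and library size, and deposited as FPKM. The labels name the builds GRCm38 and mm10. The aligner, the handling of strand and of reads with several matches are not given in the sources used here, and the paper and the labels name different library kits. Multiplied by gene length, 100% of the FPKM of a library were whole multiples of 1 value (tolerance 0.05 reads), which gave the reads. Genes whose mean FPKM reached 0.1 (20952) were compared on log2(FPKM + 0.1) by limma (version 3.58.1, R 4.3.3), using a linear model without covariates, moderated variances with a trend, and Benjamini-Hochberg adjustment at 0.05. P-values set the difference between the groups against the moderated spread within the groups of these 6 libraries. Alternatives changed the pseudocount, filter, variance trend, scaling, covariates, block and libraries, and voom was run on the recovered reads. Shared sequence was counted as 50-base stretches of GENCODE M21 transcripts. Scripts also ran in Python 3.11.15. The comparison was also run on simulated data, with set changes larger than those of the 8 enzymes. That run therefore does not show how well differences as small as these would be found. Named were the 8 enzymes, the targeted gene, of each further list the gene with the smallest p, the most abundant gene and genes at an unadjusted p under 0.05, and the 5 nearest profiles. Results of some genes that this rule names are not reported here, while the counts and medians of the lists include them. The enzymes and lists were chosen with earlier results of these data known.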

Additional observations from a re-analysis of the deposited data

How the results depend on the processing

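No enzyme of the 8 had an adjusted p under 0.05 under any of 17 alternatives, and their median log2 fold change stayed between -0.03 and 0.07. Directions near 0 were not stable. Fdft1 was 0.00 with voom, -0.03 with the choroid plexus score and -0.04 with the oligodendrocyte score as covariate, and -0.04 without TG1 and TG2. Dhcr7 was -0.06 with the choroid plexus score and -0.02 without TG1 and TG2, and Idi1 was 0.07 with the oligodendrocyte score and 0.02 without TG1 and TG2. Apoe was -0.02 and -0.05 with these scores and -0.05 without TG1 and TG2. Leaving out each library in turn gave -0.14 to 0.06 for Hmgcs1, -0.17 to 0.05 for Idi1, -0.06 to 0.04 for Fdft1, 0.00 to 0.13 for Sqle, 0.08 to 0.18 for Lss, 0.04 to 0.21 for Cyp51, -0.03 to 0.11 for Dhcr7 and -0.03 to 0.11 for Apoe. It gave 0 to 1 of the 8 enzymes higher at an unadjusted p under 0.05 (1, Cyp51, without WT3), 0 to 1 of the other enzymes higher and 0 to 1 lower, 0 to 1 genes of SREBP control higher, 0 to 2 of the LXR and export genes lower and 0 to 1 of the turnover genes higher. Medians of the lists ran from -0.03 to 0.07 for the other enzymes, -0.03 to 0.02 for LXR and export and 0.07 to 0.26 for turnover. The single call of the other enzymes became 0 without a variance trend, with either score and without TG1 and TG2. The count for LXR and export became 0 without a trend, with voom, with the oligodendrocyte score and without TG1 and TG2, and with the choroid plexus score it was 1 although Lcat had an unadjusted p of 0.0986. That of turnover (Soat1) became 0 with a pseudocount of 1, without a trend, with equal total reads, with either score, with the replicate block and without TG1 and TG2. The median of SREBP control was -0.03 with the choroid plexus score and -0.02 without TG1 and TG2, that of LXR and export was 0.06 with the choroid plexus score, and those of the other enzymes and of turnover were -0.02 and 0.29 with the oligodendrocyte score. The cause was not tested. Fdps was -0.15 with a pseudocount of 1 and -0.79 with 0.01, and was not tested at a minimum mean FPKM of 1. Libraries with the same replicate number had correlations of deviations of 0.0125, 0.0434 and 0.00314, and pairs with unlike numbers had -0.0274 to 0.0159. Whether libraries of the same number share more than the number was not tested. With the replicate block 0 of the 8 enzymes passed either threshold and their median was 0.02. At 8 to 28 reads per library, Fdps had the least depth of the 8.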
